A study of Mus musculus with 8 samples.

Results

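Genes of fast inhibitory transmission were followed in RNA of the mouse hippocampus: 6 subunits of the GABA-A receptor (Gabra2, Gabra3, Gabra4, Gabra5, Gabrd and Gabrg1) and 2 cation-chloride cotransporters (Slc12a2 and Slc12a5). The 8 genes were taken by symbol from the count tables of both ages, which hold 24421 genes each, and all 8 were found and passed the filter on low counts (15999 genes tested). GABA-A receptors are pentameric chloride channels opened by GABA, and most contain alpha, beta and gamma subunits. The alpha subunit sets affinity, kinetics and place in the membrane, and a delta subunit in place of gamma gives receptors outside the synapse that carry tonic inhibition. Whether the open channel hyperpolarizes or depolarizes the neuron depends on internal chloride, which NKCC1 (Slc12a2) loads into the cell and KCC2 (Slc12a5) extrudes. In rodents the early postnatal hippocampus is known for a high internal chloride that falls as KCC2 accumulates.

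The samples were hippocampi of male C57BL/6J mice of wildtype genotype, taken either at postnatal day 3 or at week 8. Their dams had received dexamethasone, a synthetic glucocorticoid, by intraperitoneal injection at 1 mg/kg per day for 5 days from 14.5 dpc (the IUGR group), or an equal volume of saline (the NS group). Each of the 4 groups (NS and IUGR at postnatal day 3, NS and IUGR at week 8) held 2 libraries of total RNA depleted of ribosomal RNA, so n = 2 per group throughout. The labels do not say whether libraries of a group came from separate animals, litters or pools, so p-values measure only the spread between these libraries. Dexamethasone stands here for growth restriction, and an effect of the drug and of the restricted growth cannot be told apart.

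Total counts ranged from 13030277 to 18993050 per library. All 7 neuronal markers and all 8 markers of hippocampal fields were detected in all 8 libraries, with summed levels of 3879 to 5891 and 354 to 706 CPM (the count of a gene relative to its library total). Markers of neighbouring tissue varied between libraries of a group. The summed level of 8 choroid plexus markers was 145 and 6577 CPM (NS) and 3424 and 507 CPM (IUGR) at postnatal day 3, and 8782 and 215 CPM (NS) and 341 and 194 CPM (IUGR) at week 8 (replicates 1 and 2). All 8 of these markers were detected in every library. At week 8 the replicate 2 libraries of both groups also differed from the replicate 1 libraries over many genes, and changes with age that rest on this split are also given with each pair left out in turn. In bulk tissue, fewer cells of a type and less RNA per cell cannot be told apart.

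In GENCODE M21 (build GRCm38, also named mm10), Gabra2 (ENSMUSG00000000560.9, chr5:70957597-71095849), Gabra4 (ENSMUSG00000029211.11, chr5:71569749-71658308) and Gabrg1 (ENSMUSG00000001260.10, chr5:70751047-70842617) lie near each other on the minus strand of chromosome 5. Gabra3 (ENSMUSG00000031343.13, chrX:72432681-72656848), Gabra5 (ENSMUSG00000055078.7, chr7:57407672-57510059) and Gabrd (ENSMUSG00000029054.8, chr4:155384980-155398112) are also on the minus strand. Slc12a5 (ENSMUSG00000017740.17, chr2:164960802-164999731) is on the plus strand. Exons of Gabra4 overlap those of Gabrb1 on the other strand over 46 bases, and exons of Gabra5 overlap those of Gm9962 over 148 bases. The strandedness of the counting is not given in the sources used here, so reads in these overlaps cannot be assigned with certainty.

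RefSeq start sites were available for 6 of the 8 genes. The bases just before the start sites of 4 of them are shown (RefSeq, GRCm38.p6, 5′ to 3′ on the strand of the gene, leaving out bases in annotated exons), because Gabra2 and Gabra4 share a cluster with Gabrg1 but differ from it in their change with age, and Slc12a5 is the transporter that was higher in every library of week 8. Capitals mark the matches, on either strand, to GGGCGG (a GC box), CACGTG (an E box), CCAAT and TATAAA, and no matches overlapped in these stretches.
Gabra2: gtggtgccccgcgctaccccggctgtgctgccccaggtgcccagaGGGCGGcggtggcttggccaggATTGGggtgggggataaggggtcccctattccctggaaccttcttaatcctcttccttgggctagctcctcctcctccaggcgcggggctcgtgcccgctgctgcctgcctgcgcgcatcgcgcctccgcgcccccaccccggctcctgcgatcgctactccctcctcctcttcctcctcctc
Gabra4: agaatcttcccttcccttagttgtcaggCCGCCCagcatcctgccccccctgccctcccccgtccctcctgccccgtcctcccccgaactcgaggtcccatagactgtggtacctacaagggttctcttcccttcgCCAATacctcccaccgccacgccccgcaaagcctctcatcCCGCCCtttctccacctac
Gabrg1: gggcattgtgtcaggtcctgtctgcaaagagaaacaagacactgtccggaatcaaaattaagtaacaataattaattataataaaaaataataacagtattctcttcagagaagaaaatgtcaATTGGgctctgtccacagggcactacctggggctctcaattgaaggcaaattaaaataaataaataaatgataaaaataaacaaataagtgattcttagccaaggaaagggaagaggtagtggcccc
Slc12a5: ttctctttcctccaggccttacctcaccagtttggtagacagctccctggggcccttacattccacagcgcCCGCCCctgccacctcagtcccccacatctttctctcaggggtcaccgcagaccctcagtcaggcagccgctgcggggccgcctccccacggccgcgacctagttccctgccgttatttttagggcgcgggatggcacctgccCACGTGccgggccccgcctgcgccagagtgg
These stretches lie at chr5:71095850-71096099 (Gabra2), chr5:71658364-71658558 (Gabra4) and chr5:70842618-70842867 (Gabrg1), all on the minus strand, and at chr2:164967738-164967982 on the plus strand (the second of the Slc12a5 start sites). The Gabra2 and Gabra4 stretches held 70% and 63.6% GC with 18 and 10 CpG, and the Gabrg1 stretch 35.6% GC with 1 CpG. Of the genes not shown, Gabra5 had 56.4% GC with 9 CpG. Gabra3 had 42.4% and 41.1% GC at its start sites, with 0 CpG and 1 TATAAA at each. The stretches shown were chosen by the change with age, and a relation of that change to base composition was not tested. Over 32536 windows of 250 bases before start sites the medians were 52.4% GC and 6 CpG. A GC box was present once before Gabra2, in 2 places before Gabra4 and once before this Slc12a5 start, and in 33.0% of all windows. The other Slc12a5 start, with 206 bases outside exons (chr2:164960596-164960801, 57.3% GC, 6 CpG), had 0 GC boxes, 0 E boxes and 1 CCAAT. The E box before Slc12a5 was found in 6.04% of windows, CCAAT in 33.8% and TATAAA in 12.3%. The Gabra4 and Slc12a5 stretches are shorter than the windows (195 and 245 bases) and so have fewer places for a match. AGAACA, the core hexamer bound by the glucocorticoid receptor, had no match in the 4 stretches and occurred in 16.0% of windows; this says only that these letters are not in these stretches.

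Among the receptor subunits, Gabra2, Gabra4 and Gabrd were higher at week 8 than at postnatal day 3 in both NS and IUGR offspring, and their libraries did not overlap between ages. Gabra2 encodes an alpha subunit of synaptic receptors, prominent at the axon initial segment of pyramidal cells. Its level was 57.0 and 44.2 CPM (NS) and 43.1 and 58.6 CPM (IUGR) at postnatal day 3, and 161 and 122 CPM (NS) and 139 and 139 CPM (IUGR) at week 8. All 4 libraries of week 8 exceeded all 4 of postnatal day 3. Gabra2 rose by 1.51 ± 0.26 (log2 fold change ± SE) in NS and by 1.56 ± 0.26 in IUGR (edgeR quasi-likelihood test, Benjamini-Hochberg adjusted p = 0.016 and 0.0128).

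Gabra4 encodes the alpha subunit that pairs with delta in the receptors of dentate granule cells. It was measured at 31.4 and 31.1 CPM (NS) and 33.3 and 34.7 CPM (IUGR) at postnatal day 3, and at 95.9 and 96.4 CPM (NS) and 117 and 127 CPM (IUGR) at week 8. The ages were far apart, and in NS the replicates of Gabra4 were the closest of the 8 genes at both ages. The rise was 1.65 ± 0.18 in NS and 1.95 ± 0.18 in IUGR (log2, edgeR adjusted p = 0.00537 and 0.00315).

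Gabrd, the delta subunit itself, had the largest change with age of the 8 genes in both NS and IUGR. It was barely sampled at postnatal day 3, with 36 and 54 counts in NS and 40 and 59 counts in IUGR, which is 2.48 and 3.08 CPM and 2.27 and 3.25 CPM. At week 8 it reached 15.9 and 21.4 CPM (NS) and 22.2 and 25.8 CPM (IUGR). Between libraries with the same replicate number the level at week 8 was 6.42-fold and 6.95-fold that at postnatal day 3 in NS, and 9.81-fold and 7.95-fold in IUGR. The fitted rise was 2.77 ± 0.32 in NS and 3.23 ± 0.32 in IUGR (log2, edgeR adjusted p = 0.00661 and 0.00385).

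**Figure D1:**
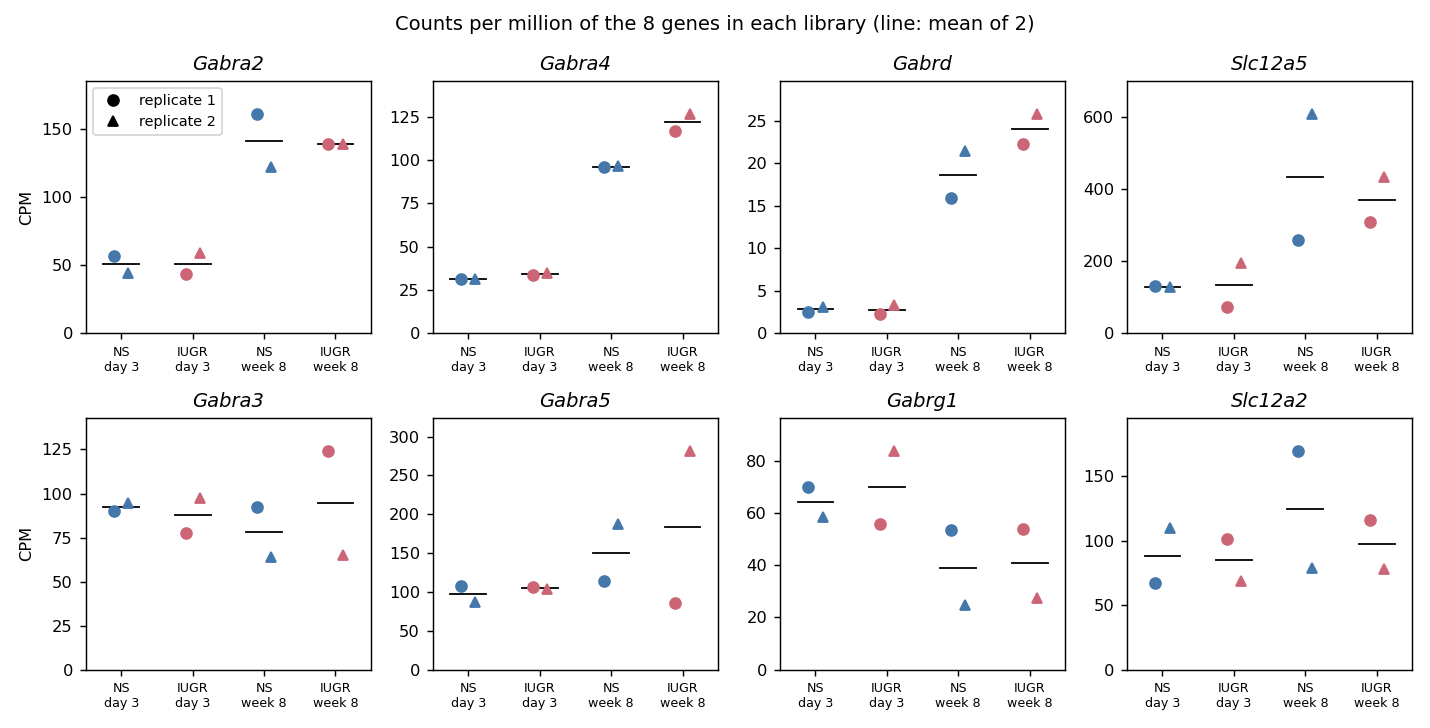
Level of each of the 8 genes in CPM (y axis, linear, from 0) in the 8 libraries, by group (x axis); circles are replicate 1, triangles replicate 2, and lines the mean of 2 libraries. Gabra2, Gabra4 and Gabrd are higher in every library of week 8 than in any of postnatal day 3, as is Slc12a5, Gabrg1 is lower in every one, and Gabra3, Gabra5 and Slc12a2 overlap between ages.

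Thus 3 of 8 genes were called higher and 0 lower with age in NS, where 7.70% of all tested genes were called higher and 6.44% lower. In IUGR the same 3 genes were called higher and 0 lower, against 9.34% and 7.48% of all tested genes. The median log2 change over the 8 genes was 1.09 in NS and 1.24 in IUGR, beside 0.04 and 0.02 over all tested genes. Without regard to a test, 5 of the 8 genes were higher and 1 lower with no overlap between ages in NS (29.2% and 32.6% of all tested genes), and 4 higher and 1 lower in IUGR (28.1% and 37.9%). The calls rest on both libraries of the neonatal group. Without either replicate of NS at postnatal day 3 none of the 8 was called in NS (adjusted p of 0.0863 or 0.0786 for Gabrd, 0.0862 or 0.0873 for Gabra4 and 0.113 or 0.157 for Gabra2, edgeR). In IUGR none was called without replicate 1 of postnatal day 3 (adjusted p = 0.0587 for Gabrd, 0.0593 for Gabra4 and 0.123 for Gabra2), and Gabrd alone without replicate 2 (0.056 for Gabra4, 0.0794 for Gabra2, edgeR), where the lone library is assumed to vary like the other groups. Fits that leave out the replicate 1 or the replicate 2 libraries of both week 8 groups have 1 library in each of them and take the spread from postnatal day 3 alone. They called 57.8% of tested genes with age in NS and 56.0% in IUGR without the replicate 1 pair (7 and 6 of the 8), and 37.9% and 41.4% without the replicate 2 pair (4 and 5 of the 8). Their log2 changes are given below as values, without their calls.

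**Figure D2:**
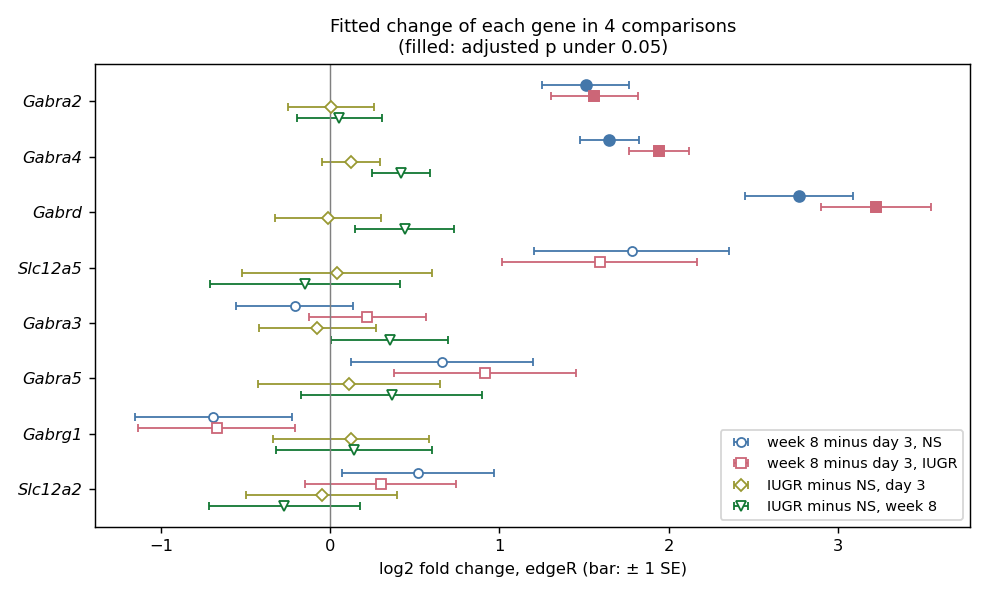
Fitted log2 fold change (x axis) of each of the 8 genes (y axis) in 4 comparisons, with bars of 1 SE on either side; filled symbols have an adjusted p under 0.05 in edgeR. The filled symbols are the week 8 against day 3 comparisons of Gabra2, Gabra4 and Gabrd, and both IUGR against NS comparisons are open for all 8 genes.

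Gabra3, Gabra5 and Gabrg1 were not called with age in either treatment. Gabra3 encodes an alpha subunit that is abundant in immature forebrain. It was at 90.1 and 94.6 CPM (NS) and 77.4 and 97.7 CPM (IUGR) at postnatal day 3, and at 92.6 and 64.1 CPM (NS) and 124 and 65.0 CPM (IUGR) at week 8. The replicate 2 libraries of week 8 were the 2 lowest of all 8 and replicate 1 of IUGR at week 8 the highest, so the ages overlapped. The fitted changes had opposite signs, -0.21 ± 0.35 in NS and 0.22 ± 0.35 in IUGR (log2, edgeR adjusted p = 0.706 and 0.69). The log2 change of Gabra3 was -0.50 in NS and -0.32 in IUGR without the replicate 1 pair of week 8, and 0.02 and 0.62 without the replicate 2 pair.

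Gabra5 encodes the alpha subunit of extrasynaptic receptors on hippocampal pyramidal cells. Its levels were 108 and 86.7 CPM (NS) and 106 and 104 CPM (IUGR) at postnatal day 3, and 115 and 187 CPM (NS) and 86.1 and 282 CPM (IUGR) at week 8. The 2 highest libraries were the replicate 2 libraries of week 8, and replicate 1 of IUGR at week 8 was the lowest of all 8. The fitted change was 0.66 ± 0.54 in NS and 0.91 ± 0.54 in IUGR (log2, edgeR adjusted p = 0.432 and 0.276). Leaving out the replicate 1 pair of week 8 gave 0.97 in NS and 1.53 in IUGR, and leaving out the replicate 2 pair 0.25 and -0.17. In IUGR the change was 1.53 without its replicate 1 of week 8 alone and turned to -0.19 without replicate 2 (edgeR). Each of these fits leaves 1 library in that group.

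Gabrg1, a gamma subunit also transcribed in glia, was the only one of the 8 genes below its day 3 level in every comparison of same-numbered libraries. It was at 70.1 and 58.3 CPM (NS) and 55.9 and 83.8 CPM (IUGR) at postnatal day 3, and at 53.5 and 24.7 CPM (NS) and 54.0 and 27.4 CPM (IUGR) at week 8. All 4 libraries of week 8 were under all 4 of postnatal day 3, by a wide margin for the replicate 2 libraries and a narrow one for replicate 1. The fitted change was -0.69 ± 0.46 in NS and -0.67 ± 0.46 in IUGR, with adjusted p of 0.343 and 0.347 (log2, edgeR). It was -1.35 and -1.24 without the replicate 1 pair of week 8, and -0.25 and -0.25 without the replicate 2 pair. The summed level of 8 markers of astrocytes and radial glia, all detected in every library, was 3130 to 4144 CPM at postnatal day 3 and 1833 to 2063 CPM at week 8. Of these, Fabp7 of radial glia went from 2324 to 3061 CPM down to 14.5 to 145 CPM, and the other 7 together from 801 to 1083 CPM up to 1763 to 1919 CPM. Among these 7, Slc1a3, Gfap, Gja1 and Sox9 were higher in every library of week 8, and Aldh1l1, Aqp4 and Hes5 overlapped between ages. The part of these cells in the Gabrg1 values was not tested.

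Of the transporters, Slc12a5 was higher in every library of week 8 than in any of postnatal day 3, but its replicates were far apart. KCC2, its product, is largely confined to neurons. It was measured at 131 and 127 CPM (NS) and 71.3 and 195 CPM (IUGR) at postnatal day 3, and at 258 and 609 CPM (NS) and 309 and 434 CPM (IUGR) at week 8. The lowest and highest libraries of postnatal day 3 were both IUGR, and the replicate 2 libraries were the higher ones in both groups of week 8. The fitted change was 1.78 ± 0.58 in NS and 1.59 ± 0.58 in IUGR, and neither passed the threshold in edgeR (adjusted p = 0.0878 and 0.104). DESeq2 on the same counts called both (adjusted p = 0.0128 and 0.027; it called 14.2% of genes higher and 11.5% lower in NS, and 15.8% and 12.9% in IUGR). Without replicate 1 of NS at week 8, which leaves 1 library in that group, the change in NS was 2.27 (edgeR). The change was 2.27 in NS and 1.82 in IUGR without the replicate 1 pair of week 8, and 1.01 and 1.34 without the replicate 2 pair.

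Other values moved with Slc12a5, though not all of them at both ages. The summed level of 8 markers of thalamus and habenula, all detected at postnatal day 3, was 292 and 216 CPM (NS) and 189 and 519 CPM (IUGR) at that age, which is the same order of the 4 libraries as for Slc12a5. At week 8 it was 223 and 160 CPM (NS) and 209 and 154 CPM (IUGR), with Gbx2 at 0 in replicate 2 of NS. The replicate 1 libraries were then the higher ones, unlike for Slc12a5. The summed level of the 7 neuronal markers was 4569 and 4909 CPM (NS) and 4735 and 4932 CPM (IUGR) at postnatal day 3. Its lowest library there was replicate 1 of NS, while that of Slc12a5 was replicate 1 of IUGR. At week 8 it was 3879 and 5269 CPM (NS) and 4183 and 5891 CPM (IUGR), with the replicate 2 libraries higher as for Slc12a5. Within this list Tubb3, Stmn2 and Map2 were lower, and Rbfox3, Snap25, Syt1 and Nefl higher, in every library of week 8 than in any of postnatal day 3. The summed level of 9 interneuron markers, all detected in every library, had the order of Slc12a5 within both ages. It was 449 and 431 CPM (NS) and 355 and 528 CPM (IUGR) at postnatal day 3. At week 8 it was 594 and 903 CPM (NS) and 622 and 800 CPM (IUGR). Within the list, Gad1, Gad2 and Slc32a1 had the order of Slc12a5 at postnatal day 3 and the other markers did not. Dlx1 and Vip were highest there in replicate 1 of IUGR (32.6 and 4.37 CPM), the library with the least Slc12a5. Pvalb and Vip were higher in replicate 1 in both groups of week 8. The part of these lists in the Slc12a5 values was not tested.

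Slc12a2, whose product NKCC1 is made in neurons, glia and, at high level, in choroid plexus epithelium, did not pass the test with age. The gene (ENSMUSG00000024597.11) lies on the plus strand at chr18:57878678-57946821. Its levels were 67.3 and 110 CPM (NS) and 102 and 68.9 CPM (IUGR) at postnatal day 3, and 170 and 79.1 CPM (NS) and 117 and 78.4 CPM (IUGR) at week 8. The fitted change was 0.52 ± 0.45 in NS and 0.30 ± 0.45 in IUGR (log2, edgeR adjusted p = 0.461 and 0.675). In NS it was -0.13 without replicate 1 of week 8 (adjusted p = 0.827), the library with the highest level of all 8. Without the replicate 1 pair of week 8 it was -0.13 in NS and -0.02 in IUGR, and without the replicate 2 pair 0.96 and 0.56. Within each group, the library with more Slc12a2 was also the library with more choroid plexus markers. In NS this was 6577 against 145 CPM of summed markers at postnatal day 3 and 8782 against 215 CPM at week 8, and in IUGR 3424 against 507 CPM and 341 against 194 CPM. In IUGR at week 8, Enpp2 alone was 270 against 131 CPM, and Kl went the other way, with 11.4 against 36.3 CPM. The order did not hold between groups. Replicate 1 of IUGR at week 8, with 341 CPM of markers, had 117 CPM of Slc12a2. Replicate 2 of NS at postnatal day 3, with 6577 CPM of markers, had 110 CPM. The part of choroid plexus RNA in the Slc12a2 values was not tested.

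The Slc12a5 to Slc12a2 ratio, in counts per kilobase of the gene length in the count table, was 2.11 and 1.26 (NS) and 0.760 and 3.06 (IUGR) at postnatal day 3. At week 8 it was 1.64 and 8.33 (NS) and 2.87 and 5.99 (IUGR). Slc12a2 exceeded Slc12a5 per length in 1 library, replicate 1 of IUGR at postnatal day 3. Replicate 1 of NS at week 8 lay inside the day 3 range, as did replicate 1 of IUGR at week 8, so the ages overlapped. The geometric mean was 1.63 in NS and 1.52 in IUGR at postnatal day 3, and 3.70 and 4.14 at week 8. Over 4 libraries of each age the ratio was 2.49-fold higher at week 8 (log2 difference 1.31), which did not pass an exact two-sided permutation test (p = 0.143, where the smallest possible is 0.0286). With the replicate 1 libraries of week 8 alone the log2 difference was 0.46, and with the replicate 2 libraries alone 2.17. Between same-numbered libraries it was -0.36 and 2.73 (NS) and 1.91 and 0.97 (IUGR).

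**Figure D3:**
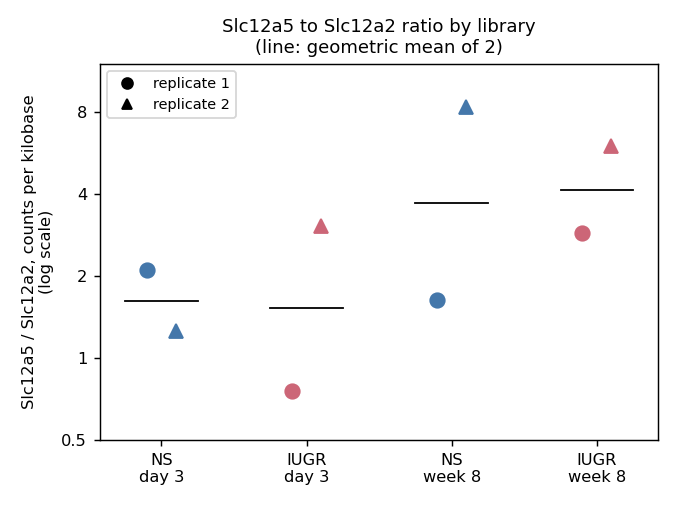
Ratio of Slc12a5 to Slc12a2 in counts per kilobase (y axis, log scale) in each library, by group (x axis); circles are replicate 1, triangles replicate 2, and lines the geometric mean of 2 libraries. At week 8 the replicate 2 libraries stand at 8.33 and 5.99, above all others, and the replicate 1 libraries, at 1.64 and 2.87, lie within the day 3 range of 0.760 to 3.06.

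The split between same-age replicates that touches Slc12a5, Gabra5, Gabra3, Gabrg1 and Slc12a2 went along with base composition over the whole table at week 8. Across 13518 genes with a coding transcript, Spearman's rho between the GC content of that transcript and the log2 difference of replicate 2 minus replicate 1 was 0.529 in NS and 0.356 in IUGR at week 8, and 0.059 and 0.25 at postnatal day 3. These genes share the same pair of libraries and are not independent. In NS at week 8 the median difference ran from -0.72 in the tenth of genes with the lowest GC to 0.90 in that with the highest, and in IUGR from -0.33 to 0.58. Slc12a5 has 58.3% GC, more than 89.8% of genes. It was 1.24 and 0.49 higher in replicate 2 in NS and IUGR (log2(CPM + 1)), beside medians of 0.61 and 0.36 for genes of like GC. Gabrg1 has 35.3% GC and differed by -1.08 and -0.95, beside medians of -0.72 and -0.33. Slc12a2, at 44.2% GC, differed by -1.09 and -0.57, and Gabra3, at 43.1% GC, by -0.52 and -0.93. The medians for genes of like GC were -0.47 and -0.25 for both. Gabra5, at 47.1% GC, was 0.70 and 1.70 higher in replicate 2, away from the genes of like GC (medians of -0.23 and -0.15). Gabra4, at 42.2% GC, differed by 0.01 and 0.12 (medians of -0.47 and -0.25), and Gabra2 also lay above the median of genes of like GC in both groups. The part of base composition in the members' values was not tested.

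**Figure D4:**
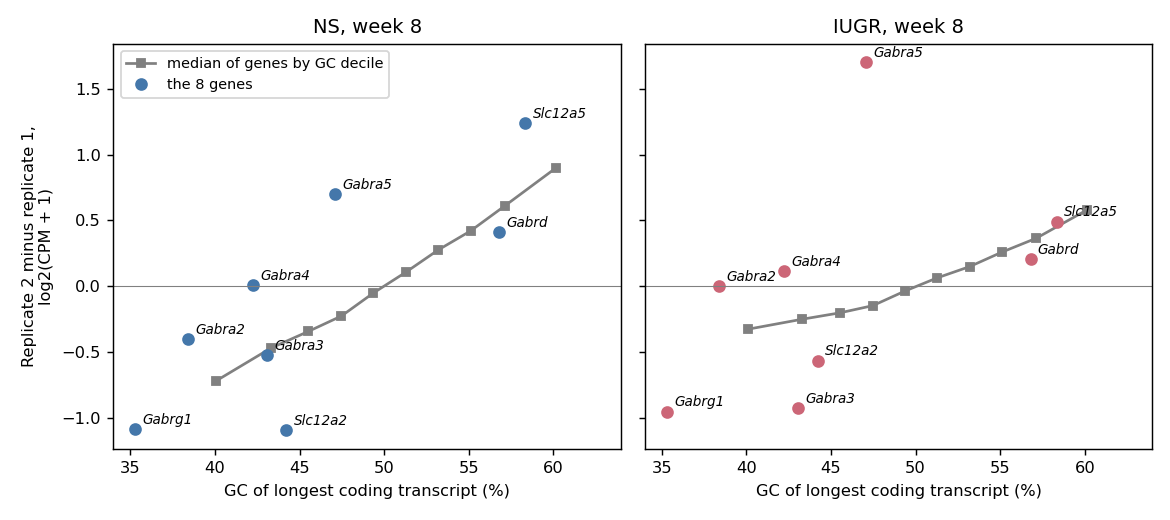
Difference between replicate 2 and replicate 1 in log2(CPM + 1) (y axis) against the GC content of the longest coding transcript (x axis) at week 8, for NS (left) and IUGR (right). Grey squares are medians of genes in 10 bins of GC, running from -0.72 to 0.90 in NS and from -0.33 to 0.58 in IUGR. Coloured points are the 8 genes, of which Gabra4, Gabra5 and, narrowly in IUGR, Slc12a5 lie above the grey line in both panels. Gabra2, to the left of the line, lies above its first square.

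Levels of different genes were compared per kilobase of the tabled length, so their order depends on that length. For Gabra2 it was 2392 bases, while the longest coding transcript of Gabra2 has 5852. With a longer length the level of Gabra2 would be lower. For the other members the tabled length was close to that of the longest coding transcript. Per tabled length, Gabra5 was the most abundant of the 8 at postnatal day 3, with a mean of 36.4 CPM per kilobase in NS and 39.3 in IUGR. Its libraries did not overlap those of Gabra3, the next gene (24.8 and 23.5). Slc12a5 and Gabra2 followed (21.4 and 21.2 in NS, 22.1 and 21.3 in IUGR) and overlapped each other. Slc12a2 (13.6 and 13.1), Gabrg1 (13.5 and 14.6), Gabra4 (7.58 and 8.25) and Gabrd (1.48 and 1.47) were lower, and Slc12a2 and Gabrg1 overlapped each other. At week 8 the top 3 were Slc12a5 (72.0 in NS and 61.6 in IUGR), Gabra2 (59.2 and 58.2) and Gabra5 (56.4 and 68.8), whose libraries overlapped. The place of Gabra2 among them rests on its tabled length. Gabra4 (23.3 and 29.6), Gabra3 (21.0 and 25.4) and Slc12a2 (19.1 and 14.9) came next, each overlapping its neighbour. Gabrd (9.93 and 12.8) stood above Gabrg1 (8.19 and 8.54) at week 8, without overlap in IUGR and with overlap in NS.

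Within the alpha subunits of this set, each of Gabra2, Gabra3, Gabra4 and Gabra5 was also expressed as a share of the summed counts per kilobase of these 4, a quantity defined after the values were seen and given with no test. The Gabra4 share was 7.94 to 9.35% over the 4 libraries of postnatal day 3 and 14.5 to 18.6% over those of week 8. That of Gabra2 was 20.8 to 24.9% and then 27.5 to 42.6%. The size of the Gabra2 share, and so of the others, depends on the tabled length of Gabra2. The Gabra3 share was lower at week 8, with 8.23 to 21.9% against 24.0 to 30.3%, while its CPM overlapped between ages. These 3 shares did not overlap between ages, with or without scaling by length. Gabra5 held 38.7 to 45.8% at postnatal day 3, the largest of the 4 shares per length in each of those libraries. Without scaling by length, Gabra3 was the larger in replicate 2 of NS at that age (36.9 against 33.8%). At week 8 the Gabra5 share was 27.1 and 43.3% (NS) and 21.2 and 49.8% (IUGR), with the replicate 2 libraries higher in both groups and the ages overlapping.

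**Figure D5:**
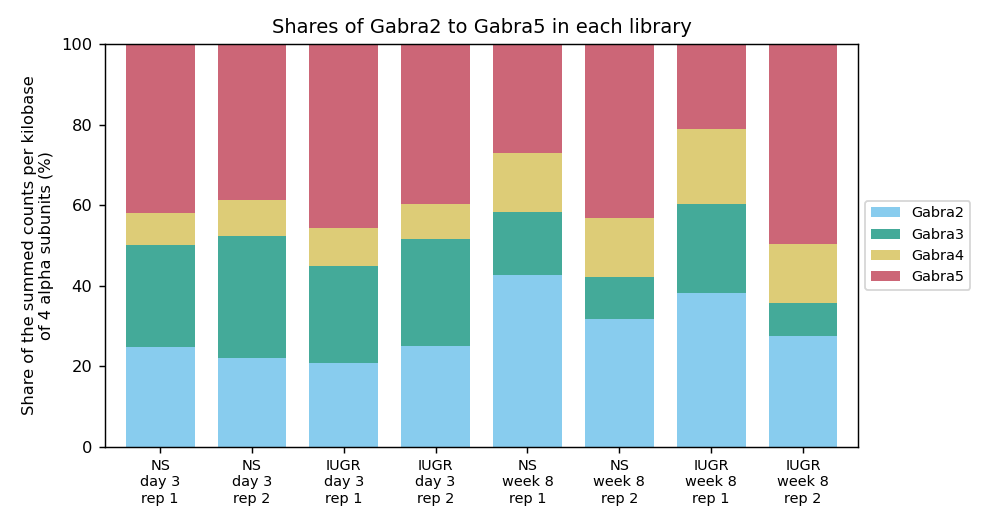
Share (y axis, percent) of Gabra2, Gabra3, Gabra4 and Gabra5 in the summed counts per kilobase of these 4 subunits, stacked for each of the 8 libraries (x axis). The Gabra4 block is wider (14.5 to 18.6% against 7.94 to 9.35%) and the Gabra3 block narrower (8.23 to 21.9% against 24.0 to 30.3%) in all 4 libraries of week 8 than in those of postnatal day 3, and the Gabra5 block is uneven among the week 8 libraries.

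None of the 8 genes differed between IUGR and NS at either age after adjustment. At postnatal day 3 the fitted IUGR minus NS differences lay between -0.08 ± 0.35 (Gabra3) and 0.12 ± 0.17 (Gabra4) on the log2 scale, with a median of 0.02. No gene of the whole table was called (0% called, edgeR; 96 genes had an unadjusted p under 0.05, none of them among the 8). DESeq2 and limma voom on all libraries also called 0 genes (129 and 90 with an unadjusted p under 0.05). These fits share their spread with week 8, where replicates were further apart. The chi-square per degree of freedom was 318 (NS) and 249 (IUGR) there, and 16.0 and 18.8 at day 3. On day 3 alone, edgeR had 839 genes with an unadjusted p under 0.05 and called 0, and DESeq2 called 65, none among the 8. Gabra4 was the only one of the 8 whose libraries did not overlap, 33.3 and 34.7 CPM in IUGR against 31.4 and 31.1 CPM in NS, and 19.7% of all tested genes were higher and 16.6% lower in IUGR without overlap at this age.

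At week 8 the differences ran from -0.27 ± 0.45 (Slc12a2) to 0.44 ± 0.29 (Gabrd), with a median of 0.25 beside 0.02 over all tested genes, and again 0% of genes were called (edgeR; 161 with an unadjusted p under 0.05). DESeq2 called 1 gene, lower and not among the 8 (0.00625% of genes; 210 with an unadjusted p under 0.05), and limma voom 0 (133). The libraries of 2 of the 8 genes did not overlap, Gabra4 and Gabrd, both higher in IUGR, and 4.08% of all tested genes were higher and 9.01% lower without overlap. For Gabra4, 117 and 127 CPM in IUGR stood against 95.9 and 96.4 CPM in NS, a log2 difference of 0.42 ± 0.17 with an unadjusted p of 0.0462 and an adjusted p of 1 (edgeR). Over all alternatives this difference stayed between 0.36 and 0.46, with adjusted p from 0.264 to 1. For Gabrd, 22.2 and 25.8 CPM stood against 15.9 and 21.4 CPM, a log2 difference of 0.44 ± 0.29 (edgeR adjusted p = 1).

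The signs of the other differences between IUGR and NS turned when single libraries were left out. The Slc12a5 difference at week 8 was -0.15 ± 0.56, and 0.62 without replicate 2 of NS. That of Gabra5 was 0.36 ± 0.54, and -0.74 without replicate 2 of IUGR. That of Slc12a2 was -0.27 ± 0.45, and 0.36 without replicate 1 of NS (edgeR, none called). The ratio of Slc12a5 to Slc12a2 differed between IUGR and NS by -0.09 at postnatal day 3 and 0.16 at week 8 on the log2 scale (exact permutation p = 1 for both, where 2 against 2 libraries cannot give less than 0.333). The test of whether the IUGR effect differed between ages called none of the 8 and no gene of the table (edgeR; 82 genes with an unadjusted p under 0.05, DESeq2 0 called). The fitted difference of effects was largest for Gabrd, at 0.45 ± 0.43. At this spread, effects of the size fitted here were not detectable with 2 libraries per group, and the missing calls do not show that IUGR and NS were alike.

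Among 10 other GABA-A subunits, 5 passed the filter. Of these, 1 was called higher with age in both NS and IUGR (7.70% and 9.34% of all tested genes). This was Gabrr2, a rho subunit at no more than 1.30 CPM in any group mean, which the rule for named genes leaves out and which is named after its values were seen. Gabrb1 and Gabrb2 encode beta subunits, a class that every common receptor needs. They were not called, with log2 changes of 0.74 ± 0.52 in NS and 0.63 ± 0.52 in IUGR for Gabrb1 and of 0.46 ± 0.33 and 0.41 ± 0.33 for Gabrb2 (edgeR adjusted p = 0.365, 0.428, 0.369 and 0.413). Gabra6, typical of cerebellar granule cells, was among the 5 below the filter, at 0 to 16 counts per library. The median change over the 5 tested subunits was 0.46 in NS and 0.41 in IUGR.

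Of 6 other Slc12 cotransporters, 4 passed the filter, and 0 were called with age in NS or IUGR (edgeR; 0 at an unadjusted p under 0.05, DESeq2 0). Their median log2 change was 0.57 in NS and 0.09 in IUGR. Among 9 kinases and partners of the cotransporters, 1 was called higher and 1 lower in each treatment. Of all tested genes, 7.70% were called higher and 6.44% lower in NS, and 9.34% and 7.48% in IUGR. Neto2, an auxiliary subunit of kainate receptors that binds KCC2, fell, with changes of -2.03 ± 0.24 in NS and -2.02 ± 0.24 in IUGR (log2, edgeR adjusted p = 0.00688 and 0.00561). Neto2 went from 216 and 264 CPM (NS) and 331 and 284 CPM (IUGR) to 66.5 and 49.4 CPM and 71.0 and 70.2 CPM. Ckb, brain creatine kinase, rose by 0.95 ± 0.23 and 1.17 ± 0.23 (adjusted p = 0.0392 and 0.0196). The 4 Wnk kinases, Stk39, Oxsr1 and Cab39, which phosphorylate the cotransporters or assist in it, were not called.

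Among 7 genes of other chloride and bicarbonate handling, 3 were called higher in NS and 2 in IUGR (7.70% and 9.34% of all tested genes). Car2, a cytosolic carbonic anhydrase also made in oligodendrocytes, rose by 2.72 ± 0.42 and 2.94 ± 0.42 (edgeR adjusted p = 0.0124 and 0.00913). Beside it, the summed level of 8 markers of the oligodendrocyte lineage, all detected, was 212 to 246 CPM at postnatal day 3 and 3452 to 5102 CPM at week 8, and its part was not tested. Slc4a10, a sodium-dependent bicarbonate transporter of neurons and of choroid plexus, rose by 1.44 ± 0.37 and 1.78 ± 0.37 (adjusted p = 0.0473 and 0.0242). Car7, the neuronal carbonic anhydrase that feeds bicarbonate flux through GABA-A receptors, was called in NS (3.70 ± 0.93, adjusted p = 0.0451) and not in IUGR (2.66 ± 0.88, adjusted p = 0.0834). Whether Car7 changed differently in NS and IUGR was tested as part of the same fit, and no gene passed.

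Of 12 genes of receptor assembly and clustering, 1 was called higher in each treatment, beside 7.70% of all tested genes in NS and 9.34% in IUGR. Gabarapl1, of the family that traffics receptors, rose by 1.33 ± 0.21 and 1.51 ± 0.21 (edgeR adjusted p = 0.0131 and 0.00845). Gephyrin itself (Gphn) was at 0.11 ± 0.19 and 0.14 ± 0.19 and was not called. Of 8 genes of GABA synthesis, release and uptake, 1 was called higher in each treatment, beside the same shares of all tested genes. Abat, the transaminase that degrades GABA, rose by 1.34 ± 0.28 and 1.24 ± 0.28 (adjusted p = 0.0285 and 0.0313). None of 5 GABA-B receptor genes was called, with 2 at an unadjusted p under 0.05 in NS and 0 in IUGR (edgeR; DESeq2 called 0). None of the genes of these lists was called between IUGR and NS at either age.

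The genes whose pattern over the 8 libraries was nearest to that of 3 of the members were found among 10187 genes with a mean of at least 10 CPM, by the root mean square distance of log2 CPM centred on the mean of each gene. Nearest to Slc12a5 were Kndc1 (0.143), Sez6l2 (0.222), Pitpnm3 (0.222), Disp2 (0.229) and Syt13 (0.236). For Kndc1 the levels were 51.6 and 52.2 CPM (NS) and 31.8 and 73.1 CPM (IUGR) at postnatal day 3, and 90.6 and 227 CPM (NS) and 96.2 and 160 CPM (IUGR) at week 8, so it shares the low and the high IUGR library of day 3 and the higher replicate 2 of week 8. Nearest to Slc12a2 were Ctnnal1 (0.156), Mtm1 (0.164), Dgkh (0.181), Erap1 (0.189) and Rpgrip1l (0.199). Nearest to Gabrd were Cap2 (0.201), Eno2 (0.209), Unc80 (0.219), Papss2 (0.229) and Hlf (0.232). Cap2 went from 18.0 to 24.6 CPM over the libraries of postnatal day 3 to 145 to 265 CPM over those of week 8. These lists follow the library differences as well as age, and likeness of pattern was not tested.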

How the data were processed

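RNA-seq counts of 8 mouse hippocampus libraries were used, 2 in each of 4 groups taken from the treatment and stage labels. Raw read counts for each gene symbol, with gene lengths, were deposited by the authors in 1 table per age, and normalized tables that were not used. Per the submitters' processing notes, the tools were featureCounts 1.6.1, HISAT2 2.1.0, cutadapt 1.16, DESeq2 1.26.0 and SAMtools 1.9, with build mm10. Strandedness, annotation release and treatment of multi-mapping reads were not given in the sources used here.

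The members, gene lists and tests were chosen with earlier results of these data known. Counts of all 8 libraries were fitted by edgeR 4.0.16 (R 4.3.3) with a mean for each of 4 groups (TMM factors 0.950 to 1.031, default expression filter, 15999 genes, common biological coefficient of variation 0.374). Comparisons used its quasi-likelihood F test, adjusted over all tested genes by Benjamini-Hochberg, with a threshold of 0.05; the SE is the log2 fold change divided by the square root of F. Printed CPM are counts over the library total, and levels between genes are per kilobase of the tabled length. The ratio was tested with exact permutation tests over libraries (numpy 2.4.6). Replicates differed by more than sampling noise (chi-square over genes, per degree of freedom, of 16.0 to 318). Named genes are all 8 members, the called genes of each list with a mean of at least 1 CPM (at most 4 per list), Gabra6, Gabrb1 and Gabrb2, and the 5 genes nearest in pattern to Slc12a5, Slc12a2 and Gabrd. Marker lists of 11 cell types or neighbouring tissues were summed per library. Those of meninges and fibroblasts (98.9 to 563 CPM), endothelium (30.6 to 91.1), striatum (84.8 to 182) and neocortex (158 to 398) are given here and the others beside the results. Scripts were tested on simulated data. Alternatives were RLE and upper-quartile scaling, removal of small RNA genes, other count filters, DESeq2 1.42.0, limma 3.58.1 (voom), each age alone, the replicate number as a block, the ratio and shares without length, and libraries left out. Leaving out both replicate 1 libraries of week 8, the ratio with 1 replicate number of week 8 only, and the shares among 4 alpha subunits were added after the data were seen. Some genes of the lists, and the planned alpha shares and other results that need them, are not reported here. The replicate numbers were not taken as pairs: no label ties equal numbers together, and each age has 2.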

Additional observations from a re-analysis of the deposited data

How the results depend on the processing

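With 2 libraries per group the spread rests on few degrees of freedom, and the cause of the changes below was not tested except where fewer libraries were fitted. Gabrd had 36 to 59 counts per library at postnatal day 3, so its level there is the least certain of the 8. Gabra2, Gabra4 and Gabrd rose with age in NS and IUGR under all alternatives and were called in all but some of those that leave out 1 library of postnatal day 3.

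The number of genes called with age was 4110 in NS and 4581 in IUGR with DESeq2, 6201 and 6778 without both replicate 2 libraries of week 8 and 9520 and 9221 without both replicate 1 libraries. Leaving out single libraries gave 51 to 3801 genes in NS and 92 to 4069 in IUGR, the lowest without a day 3 library of the same treatment. Of the 8 genes, 0 to 4 were then called. For IUGR against NS, DESeq2 on each age alone called 65 genes at day 3 and 1 at week 8, DESeq2 on all libraries 1 at week 8, and edgeR without both replicate 1 libraries of week 8 called 2 at week 8 and 2 for the difference between ages; none was among the 8 genes.

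With the replicate number as a block within age, 7667 genes were called with age in NS and 8061 in IUGR, 5 and 6 of them among the 8 (24.1% of all tested genes were called higher and 23.9% lower in NS, 25.5% and 24.9% in IUGR): Slc12a5 (1.62 and 1.70, adjusted p = 0.00689 and 0.00526, edgeR), Gabrg1 (-0.80 and -0.74, adjusted p = 0.0159 and 0.0201) and, in IUGR, Gabra5 (0.69, adjusted p = 0.038) joined Gabra2, Gabra4 and Gabrd. The ratio had the same difference (1.31). An exact test that flips the signs of the differences between same-numbered libraries gave p = 0.25, and with so few differences it cannot give a p under 0.05. Over 15999 genes the replicate 1 minus replicate 2 differences of NS and IUGR correlated at -0.0747 at day 3 and 0.854 at week 8, and with 2 numbers per age the numbers are not taken as pairs. Lists gained calls with the block too; for IUGR against NS the block called 0 genes at either age.

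None of the changes whose sign turned was called in the fit to all 8 libraries (smallest adjusted p 0.276, edgeR). Leaving out each library in turn, the log2 changes that turned had these ranges. For IUGR against NS at day 3 the range was -0.39 to 0.34 for Slc12a2, -0.85 to 0.56 for Slc12a5, -0.22 to 0.18 for Gabra2, -0.24 to 0.046 for Gabra3, -0.044 to 0.26 for Gabra5, -0.28 to 0.19 for Gabrd and -0.19 to 0.35 for Gabrg1. For IUGR against NS at week 8 the range was -0.71 to 0.36 for Slc12a2, -0.66 to 0.62 for Slc12a5, -0.12 to 0.25 for Gabra2, -0.20 to 0.74 for Gabra3, -0.74 to 0.96 for Gabra5 and -0.44 to 0.78 for Gabrg1. For age in NS the range was -0.13 to 0.95 for Slc12a2, -0.50 to 0.014 for Gabra3 and -0.017 to 0.81 for Gabrb2. For age in IUGR the range was -0.016 to 0.62 for Slc12a2, -0.32 to 0.61 for Gabra3, -0.19 to 1.53 for Gabra5 and -0.29 to 1.19 for Gabrb1. The ratio ranged from -1.10 to 0.91 for IUGR against NS at day 3 and from -1.01 to 1.34 at week 8. The age difference of each share among 4 alpha subunits kept its sign when any library was left out and without length. Without both replicate 1 libraries of week 8 the change was 0.038 for Slc12a2 (IUGR against NS at week 8), -0.13 for Slc12a2 (age in NS), -0.016 for Slc12a2 (age in IUGR), -0.019 for Gabra2 (IUGR against NS at day 3), -0.32 for Gabra3 (age in IUGR), -0.29 for Gabrb1 (age in IUGR) and -0.015 for Gabrb2 (age in NS). With limma voom the change was -0.13 for Slc12a5 (IUGR against NS at day 3). With the replicate block the change was -0.13 for Slc12a5 (IUGR against NS at day 3). With the block on day 3 alone the change was -0.12 for Slc12a5 (IUGR against NS at day 3). Without both replicate 2 libraries of week 8 the change was 0.35 for Slc12a5 (IUGR against NS at week 8), -0.0090 for Gabra2 (IUGR against NS at day 3), -0.13 for Gabra2 (IUGR against NS at week 8), 0.020 for Gabra3 (age in NS), -0.33 for Gabra5 (IUGR against NS at week 8) and -0.17 for Gabra5 (age in IUGR). With RLE scaling the change was -0.0021 for Gabra2 (IUGR against NS at day 3). With upper-quartile scaling the change was -0.028 for Gabra2 (IUGR against NS at day 3) and -0.012 for Gabra2 (IUGR against NS at week 8). With no count filter the change was -0.0084 for Gabra2 (IUGR against NS at day 3). With a mean of at least 10 counts the change was -0.022 for Gabra2 (IUGR against NS at day 3). With DESeq2 the change was -0.0017 for Gabra2 (IUGR against NS at day 3). With DESeq2 on day 3 alone the change was -0.0052 for Gabra2 (IUGR against NS at day 3). The remaining 916 values of single genes, shares and lists kept their direction and side of the threshold, 24 passed it and 61 no longer did; 10 more moved beyond the limits set for counts and shares (9 counts of the 8 genes called, and the Gabra4 share, 9.81 percentage points without length against 6.86). Of the counts of all genes called and the ratio, 88 values held, 26 moved and 4 turned.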
